A study of Mus musculus with 3 samples.

Results

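The genes described here encode aminoacyl-tRNA synthetases, and they were taken as every probe that was not a control and whose gene name was 1 of 31 listed synthetase symbols. The list gave 31 genes on 65 probes, of 27729 genes on 41174 probes in all. Of the 31 genes, 20 encode enzymes of the cytosol, on 45 probes, and 11, with names ending in 2, encode enzymes of the mitochondrion, on 20 probes. The study asked how pAsc, a compound whose name the labels abbreviate in a series titled for vitamin C, changes T lineage cells and the stroma they grow on.

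Total RNA was hybridised to 3 Agilent mouse arrays of 2 colours, each with treated RNA in Cy5 and untreated RNA of the same kind of culture in Cy3. The first array held OP9-DL1 stromal cells given 800 µM pAsc for 24 h and OP9-DL1 cells left untreated in continuous culture, a single mouse line of strain B6-C3Hf1 that is labelled osteoblast. The second held T lineage cells from C57BL/6 bone marrow progenitors at day 14 of culture, given 800 µM pAsc for 24 h or left untreated, and the third held such cells at day 17, given 800 µM pAsc for 72 h or left untreated. All T lineage cells, treated or not, had grown on OP9-DL1 cells, a stromal line made to display a Notch ligand, with the cytokines Flt3L and IL7, and most stroma was removed only by a short adherence step. There was 1 array per comparison and no dye swap, so no value below has a replicate error and none has a p-value, and a dye effect of a probe cannot be told apart from an effect of the compound.

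Aminoacyl-tRNA synthetases join each amino acid to its transfer RNA, the step that fixes the meaning of the genetic code in protein synthesis. Cytosolic and mitochondrial ribosomes draw on separate sets of these enzymes, both made from nuclear genes, although Gars and Kars each supply both compartments. When amino acids run short or unfolded protein builds up, the transcription factor ATF4 raises many cytosolic synthetase genes together with genes of amino acid synthesis and uptake. Dividing lymphocytes and matrix-secreting stroma both make much protein and use these enzymes heavily.

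Sequences were taken to show which part of a gene a value reads and which letters lie near its start. The aspartate enzyme Dars moved most among the cytosolic genes, and its second brightest mRNA probe reads across an exon junction, since its 60 bases cover 1661 bases of mm9 on the minus strand of chromosome 1. It lies at chr1:130310284-130311944 and is given below from the array files with no letters marked.
Dars probe A_52_P355398: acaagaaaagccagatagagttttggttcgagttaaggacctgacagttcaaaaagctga

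The windows from 250 bases before to 50 after the gene start were read from RefSeq (GRCm38.p6) for 23 of the 31 genes, 13 cytosolic and 10 mitochondrial. They were searched on both strands for TGATGNAA, the core that ATF4 is known to bind with a C/EBP partner, and for TGATGCAA, which is contained in it. Among 32851 mouse promoters, 3.97% held TGATGNAA and 0.895% held TGATGCAA. TGATGNAA lay in 5 of the 13 cytosolic windows (Aars, Gars, Iars, Tars and Yars) and in 0 of the 10 mitochondrial ones, and TGATGCAA lay in 4 of the 13 (Aars, Iars, Tars and Yars). A match is a run of letters and not a binding site, and its absence says only that these letters are not in the window. Those shown, with each match in capitals, are Aars (chr8:111033592-111033891, plus strand), with 2 matches, and Tars (chr15:11399609-11399908, minus strand) and Yars (chr4:129189653-129189952, plus strand). Among the genes with a match, Tars had the lowest and Yars the highest ratio of treated over untreated stroma.
Aars promoter: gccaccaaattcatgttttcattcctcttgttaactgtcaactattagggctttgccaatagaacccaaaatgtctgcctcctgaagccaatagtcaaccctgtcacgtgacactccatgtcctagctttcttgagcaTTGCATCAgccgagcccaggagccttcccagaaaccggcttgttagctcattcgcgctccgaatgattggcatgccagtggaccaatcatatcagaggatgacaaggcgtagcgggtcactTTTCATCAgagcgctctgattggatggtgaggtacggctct
Tars promoter: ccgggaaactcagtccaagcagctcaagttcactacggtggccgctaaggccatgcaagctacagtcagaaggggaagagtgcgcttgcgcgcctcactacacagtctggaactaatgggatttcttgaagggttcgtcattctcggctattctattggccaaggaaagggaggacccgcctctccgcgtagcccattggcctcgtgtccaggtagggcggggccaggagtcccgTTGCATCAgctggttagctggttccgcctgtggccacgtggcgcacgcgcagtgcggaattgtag
Yars promoter: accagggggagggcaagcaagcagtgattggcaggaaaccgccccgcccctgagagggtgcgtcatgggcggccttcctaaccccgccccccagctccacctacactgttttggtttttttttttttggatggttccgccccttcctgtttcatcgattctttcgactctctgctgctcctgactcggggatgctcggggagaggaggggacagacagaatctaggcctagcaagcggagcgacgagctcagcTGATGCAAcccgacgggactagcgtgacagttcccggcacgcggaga

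The match in Yars, TGATGCAA, started at base 4 after the gene start, and those in Tars and Aars ran on the other strand. In Tars it started 15 bases upstream, and in Aars the matches started 112 bases upstream and at base 10 after the start. Beside these letters, the log2 ratio of treated over untreated stroma was -0.46 for Tars, -0.19 for Aars and 0.15 for Yars. Gars, whose match started 30 bases upstream, was at 0.03, and Iars, with a match at base 8 after the start, was at -0.14. The 5 genes with the letters thus lay on both sides of 0.

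A gene was read from its brightest probe, and a gene was called measured if 0.5 or more of the spots of that probe stood well above background in both colours. All 31 genes were measured on the stromal array and 30 on each T cell array. The exception was Lars2, whose 1 spot carried a Cy3 nonuniformity flag on both T cell arrays and was left out there. A gene is called higher or lower where its fold reached 1.5, a log2 ratio of 0.585 in size. The measured genes numbered 14346 on the stromal array, 16971 on the 24 h T cell array and 16282 on the 72 h T cell array. Repeat spots of 1 probe differed with an SD of 0.066 to 0.070 on the log2 scale, and different probes of 1 gene with an SD of 0.178, 0.143 and 0.178 on the 3 arrays in that order. These SDs cover the array and not the cultures.

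The labelled cell types were checked against their markers. All 23 stromal markers stood above background in treated and in untreated OP9-DL1 cells, where 7 and 4 of 18 T lineage and blood markers did, with Ptprc, Cd3d and Cd3g among those that did not in either. All 18 blood markers stood above background in every T cell sample, but so did 21 to 23 of the 23 stromal markers. Their summed linear level was 248000 in treated and 141000 in untreated day 14 T cells, and 581000 in treated and 371000 in untreated day 17 T cells, against 809000 in treated and 604000 in untreated stroma. Dcn, a stromal proteoglycan gene, was not above background in treated or untreated day 14 cells or in untreated day 17 cells. The treated and untreated T cell samples thus differed in stromal marker RNA as well as in pAsc, and fewer cells of a type and less RNA per cell cannot be told apart in these bulk samples.

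In OP9-DL1 stroma at 24 h, Dars was lower and Lars2 higher in treated cells, and the other synthetase genes stayed inside 1.5-fold. Of the 20 cytosolic genes, 1 was at least 1.5-fold lower, beside 2.78% of all measured genes, and 0 were at least 1.5-fold higher, beside 2.2%. Their median log2 ratio was -0.08, with 11 of 20 below 0, beside a median of 0.02 and 46.6% of all genes below 0, and under median centring in place of the loess dye curve it was 0.23 relative to the median of all genes. Of the 11 mitochondrial genes, 0 were lower and 1 was higher by 1.5-fold, and their median was 0.17 with 3 of 11 below 0.

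**Figure D1:**
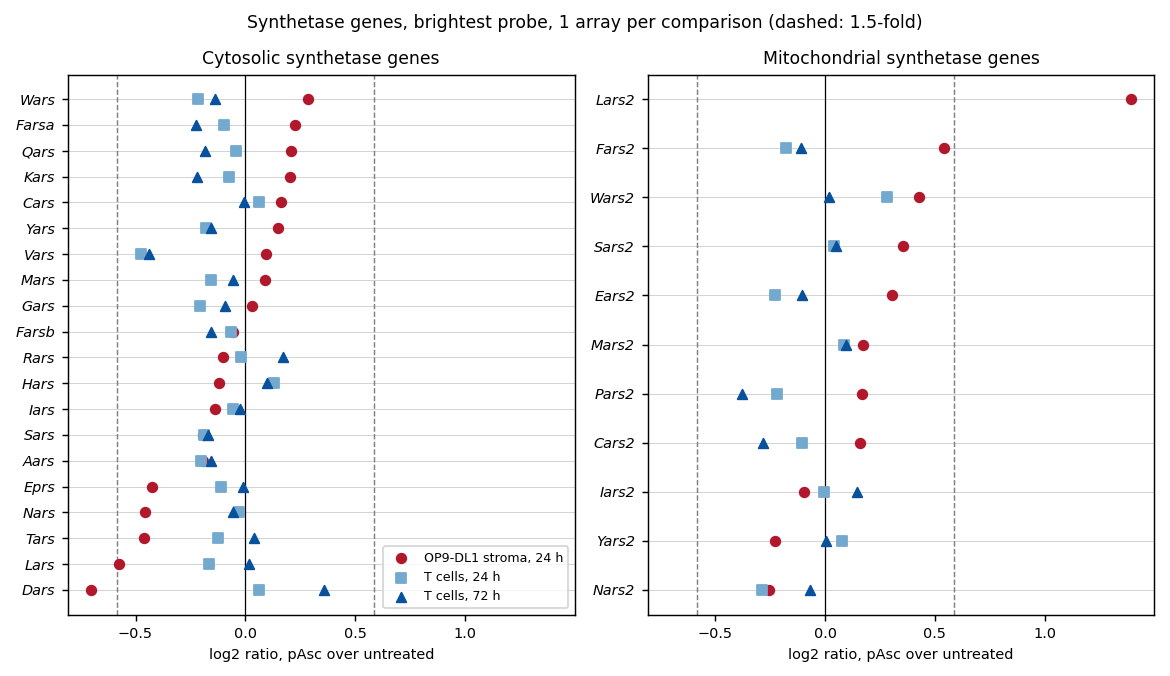
Log2 ratio of treated over untreated cells (x axis) for the brightest probe of each synthetase gene (y axis) on the 3 arrays, cytosolic genes left and mitochondrial genes right, with dashed lines at 1.5-fold. Dars (-0.70) and Lars2 (1.39) in stroma are the only points outside the lines, and values are after the loess dye curve, without which the cytosolic medians lie above 0 on each array.

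A set of 8 cytosolic synthetases, for aspartate, glutamate and proline, isoleucine, lysine, leucine, methionine, glutamine and arginine, is known to sit in 1 multi-synthetase complex. Dars, the aspartate enzyme, had a log2 level of 10.20 in treated and 10.90 in untreated stroma, a log2 ratio of -0.70 or 1.63-fold lower. Its second mRNA probe, printed above, gave -0.73, and with median centring on measured genes in place of loess Dars was at -0.59. Another mRNA probe of Dars stood above background in treated but not in untreated stroma, and a cDNA clone probe under the same name gave -0.00. Only 1.28% of measured genes had a lower ratio than Dars on this array.

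Lars, the leucine enzyme, lay just inside the 1.5-fold line, at a level of 12.75 in treated and 13.32 in untreated stroma, with a log2 ratio of -0.57. Its other mRNA probes gave -0.36 and -0.49. Eprs, the joint glutamate and proline enzyme, was at 11.23 in treated and 11.66 in untreated stroma, and its 4 probes ran from -0.49 to -0.40. All probes of both genes thus lay below 0 in stroma, although none passed the fold rule. The other complex members spread over both sides, with Iars at -0.14, Rars at -0.10, Mars at 0.09, Kars at 0.20 and Qars at 0.21. The median of the 8 was -0.12, with 5 below 0.

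Outside the complex, 12 cytosolic genes had a median of -0.01, with 6 below 0. Tars, the threonine enzyme, had a level of 13.63 in treated and 14.09 in untreated stroma, and Nars, the asparagine enzyme, had 12.42 in treated and 12.88 in untreated stroma, a log2 ratio of -0.46 for each. Aars and Sars, for alanine and serine, were both at -0.19, Hars, for histidine, at -0.12 and Farsb at -0.05. At the other end stood Wars, the tryptophan enzyme, at 10.89 in treated and 10.60 in untreated stroma with a log2 ratio of 0.28. Farsa, which pairs with Farsb to form the phenylalanine enzyme, was at 0.23, Cars, for cysteine, at 0.16, Yars, for tyrosine, at 0.15, Vars, for valine, at 0.10 and Gars, for glycine, at 0.03. The 2 subunits of the phenylalanine enzyme were 0.28 apart, beside a probe SD of 0.178.

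Among mitochondrial enzymes, Lars2, for leucine, had a log2 level of 17.21 in treated and 15.82 in untreated stroma, a log2 ratio of 1.39 or 2.63-fold, and passed 2-fold where 0.432% of all genes did. It rests on 1 probe (mm9, chromosome 9, bases 123371116 to 123371175), and ranked 26 by brightness among the measured genes. The mean log2 brightness of this probe was 16.6, while the next brightest mitochondrial synthetase gene was at 10.4. Whether the probe reads only Lars2 mRNA was not tested. The 138 genes with a mean log2 brightness above 16 had a median ratio of 0.52 on this array, and 4 of them passed 2-fold higher. In the log ratio deposited by the authors, which uses another dye curve, Lars2 was at 0.91 and those 138 genes at 0.18. The part of signal brightness in the Lars2 value was not tested.

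Fars2, the phenylalanine enzyme of mitochondria, was at 10.56 in treated and 10.02 in untreated stroma, a log2 ratio of 0.54 that lay inside the line. It reached 0.61 in the authors' deposited log ratio and 0.59 with plain background subtraction, past the line in both. Wars2, for tryptophan, was at 8.75 in treated and 8.32 in untreated stroma, a ratio of 0.43, but its second measured probe gave -0.30, and the 2 probes disagreed in sign. Sars2, for serine, was at 0.36 and Ears2, the glutamate enzyme, at 0.31, but a measured clone probe of Ears2 was at 0.01. Mars2 and Pars2, for methionine and proline, were both at 0.17. Cars2, for cysteine, was at 0.16, with 0.09 on its other probe. Below 0 lay Iars2 at -0.10, with a measured clone probe at 0.31, Yars2 at -0.23 and Nars2 at -0.26. Values of mitochondrial genes thus leaned upward, also without Lars2, when their median was 0.17.

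The gap between the sets in stroma, 0.25 in the median of mitochondrial over cytosolic genes, depended on the dye curve. The cytosolic genes were brighter, with a median log2 brightness of 11.6 against 9.67 for the mitochondrial ones and 9.57 for all genes. With median centring of measured genes in place of the loess curve the gap turned to -0.02, with medians of 0.21 for mitochondrial and 0.23 for cytosolic genes. With the authors' deposited log ratio it was 0.34. The 23 genes of mitochondrial translation, such as ribosomal proteins and elongation factors, had a median of -0.01 with 12 of 23 below 0.

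In T lineage cells after 24 h, no synthetase gene passed the fold rule, and most lay slightly below 0. Of 30 measured genes, 0 were lower by 1.5-fold or more, beside 0.23% of all genes, and 0 were higher by as much, beside 3.19%. The 20 cytosolic genes had a median of -0.105, with 17 below 0, beside a median of 0.02 and 45.3% of all genes below 0; with median centring in place of loess it was 0.03 relative to the median of all genes. The 10 measured mitochondrial genes had a median of -0.05, with 6 below 0. The members' own spread, an SD of 0.13 among cytosolic genes, was about that between probes of a gene.

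By brightest probe, Vars, the valine enzyme, was the lowest. It had a level of 11.10 in treated and 11.58 in untreated day 14 cells, a log2 ratio of -0.47, and its second probe gave -0.29. Only 0.572% of measured genes had a lower ratio than its brighter probe. Dimmer mRNA probes of Wars, at -0.44, Aars, at -0.38, and Tars, at -0.34, lay below the second Vars probe, and no other dimmer mRNA probe did. At 72 h Vars was again the lowest by brightest probe, at 10.75 in treated and 11.19 in untreated day 17 cells. Its log2 ratio was -0.44, with a second probe at -0.34, and 4.08% of genes lay lower. Both of its probes were thus below 0 on both T cell arrays, while in stroma they gave 0.10 and 0.20. The 2 T cell arrays hold separate treated and untreated samples.

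Hars was the highest cytosolic gene at 24 h, at 12.05 in treated and 11.92 in untreated cells with a ratio of 0.13, and only Hars, Dars and Cars lay above 0. Wars2 was the highest mitochondrial gene, at 7.29 in treated and 7.01 in untreated cells with a ratio of 0.28, but its other measured probe was at 0.00. Mars2 was at 0.09, Yars2 at 0.08, Sars2 at 0.04 and Iars2 at -0.00. The lowest mitochondrial genes were Nars2, the asparagine enzyme, at 7.58 in treated and 7.87 in untreated cells with a ratio of -0.29, and Ears2, at 9.03 in treated and 9.26 in untreated cells with a ratio of -0.23. Pars2 followed at -0.22, Fars2 at -0.18 and Cars2 at -0.10.

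**Figure D2:**
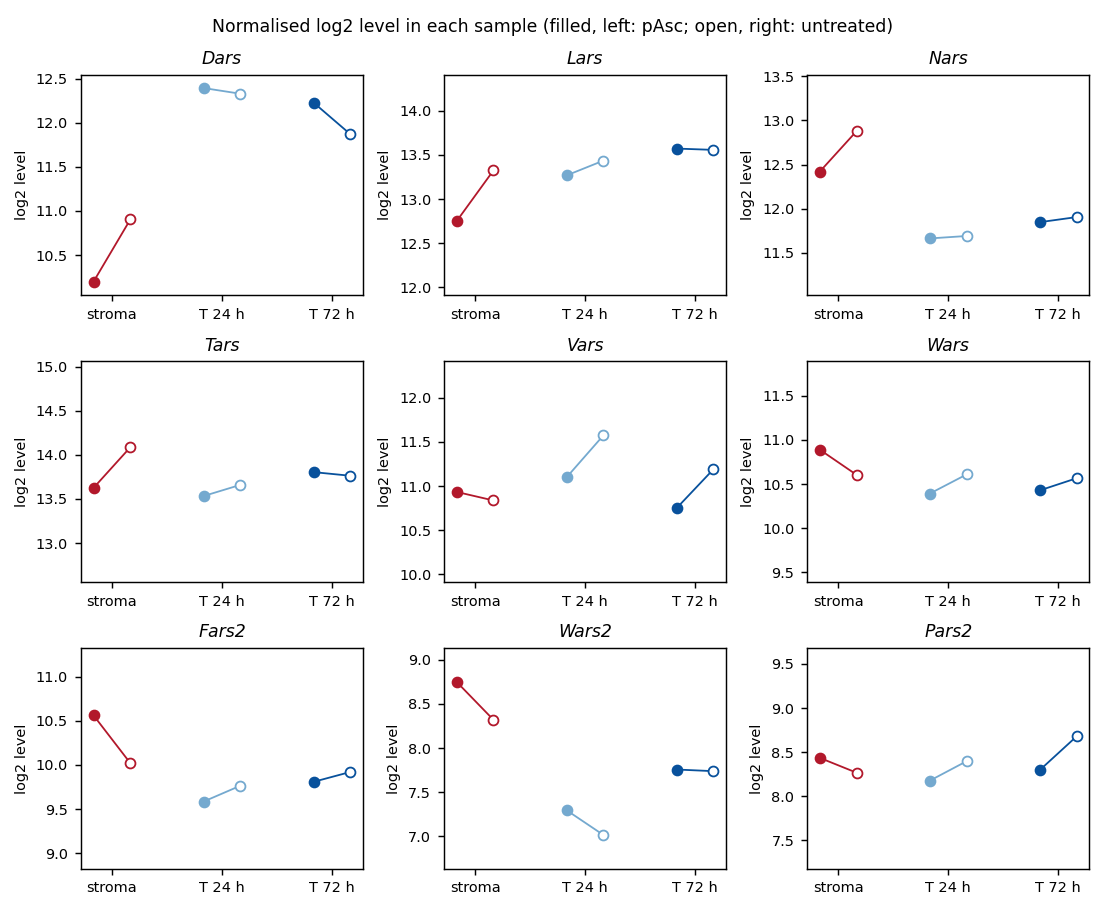
Normalised log2 level (y axis, 2.5 units high in each panel) of 9 synthetase genes in the 6 samples, treated left and filled, untreated right and open, joined within an array. Dars lies below its untreated level in treated stroma (10.20 and 10.90) and above it in T cells treated for 72 h (12.23 and 11.87), and Vars lies below its untreated level on both T cell arrays.

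After 72 h, again no synthetase gene passed the fold rule. Of 30 measured genes, 0 were lower and 0 higher by 1.5-fold or more, beside 1.93% of all genes in each direction. The cytosolic median was -0.07, with 15 of 20 below 0, beside 49% of all genes, and it was 0.13 relative to the median of all genes with median centring in place of loess. The mitochondrial median was -0.03, with 5 of 10 below 0.

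Dars was the highest gene at 72 h, at 12.23 in treated and 11.87 in untreated day 17 cells, a log2 ratio of 0.36. Its mRNA probes gave 0.36, 0.58 and 0.14, all above 0, while the cDNA clone probe gave -0.36. Rars, the arginine enzyme, was at 8.98 in treated and 8.80 in untreated cells with a ratio of 0.17, and Iars2, for isoleucine in mitochondria, at 11.34 in treated and 11.20 in untreated cells with a ratio of 0.15. After Vars, the lowest genes were Pars2, the mitochondrial proline enzyme, at 8.30 in treated and 8.68 in untreated cells with a ratio of -0.38, and Cars2, for cysteine, at 9.82 in treated and 10.11 in untreated cells with a ratio of -0.28. Cars2 gave -0.27 on its other probe. Lars was at 0.01 on its brightest probe, but its other probes gave -0.06 and -0.58, so the gene has no single direction there. The other mitochondrial genes ran from -0.11, for Fars2 and Ears2, to 0.10, for Mars2, and Wars2, at 0.02, had a second probe at -0.39.

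On its brightest probe, no synthetase gene differed by 1.5-fold between the 2 T cell times. The ratio at 72 h minus that at 24 h had a median of 0.04 over the cytosolic genes and 0.01 over the mitochondrial ones, with 0 of 30 genes 1.5-fold apart in either direction, beside 2.57% of all genes lower and 0.921% higher at 72 h. On these probes Dars had the highest difference, 0.29, and Wars2 the lowest, -0.26, beside a probe SD of 0.178. Other mRNA probes went further, with -0.74 for a dimmer Lars probe and 0.59 for the second Dars probe, both past 1.5-fold. Across the 30 genes the ratios at the 2 times had a Pearson correlation of 0.64, and across all 13595 genes measured on every array it was 0.53, and the points share dye orientation and probes. Stromal marker RNA differed beside these values, since 14 of 21 measured stromal markers were at least 1.5-fold higher in T cells treated for 24 h, beside 3.19% of all genes, and 9 of 22 in those treated for 72 h, beside 1.93%. Without the genes at least 2-fold brighter in untreated stroma than in untreated day 14 cells, the cytosolic median was -0.12 at 24 h and -0.11 at 72 h, over 18 genes, and the mitochondrial median -0.105 at 24 h and -0.07 at 72 h, over 9 genes. The median of all remaining genes was -0.0076 at 24 h and -0.02 at 72 h. The untreated day 14 level used for this removal is also the untreated side of the 24 h ratio, so the removal is not independent of that ratio. It took out Hars, Nars and Wars2, and Hars and Wars2 were the highest of their sets at 24 h.

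Between stroma and T cells at 24 h, Dars was the synthetase gene furthest apart. The ratio in stroma minus that in T cells was -0.77 for Dars, 1.70-fold, and 0.72 for Fars2, 1.65-fold, and these were the 2 genes past 1.5-fold of 30, beside 7.7% of all genes lower and 2.03% higher. Vars, at 0.57, lay just inside. The median difference was 0.01 over cytosolic genes and 0.21 over the 10 mitochondrial ones, beside -0.03 over all genes. The cytosolic value depended on the dye curve, and with median centring on measured genes it was 0.21, beside -0.01 over all genes. A dye effect of a probe that is equal on both arrays cancels in these differences. Across the 30 genes the correlation of the 2 arrays was 0.0003, and that of stroma with T cells at 72 h was -0.43, where all genes gave 0.064 and 0.137. The value of -0.43 includes Dars, the lowest member in stroma (-0.70) and the highest at 72 h (0.36). How far it rests on Dars was not tested.

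**Figure D3:**
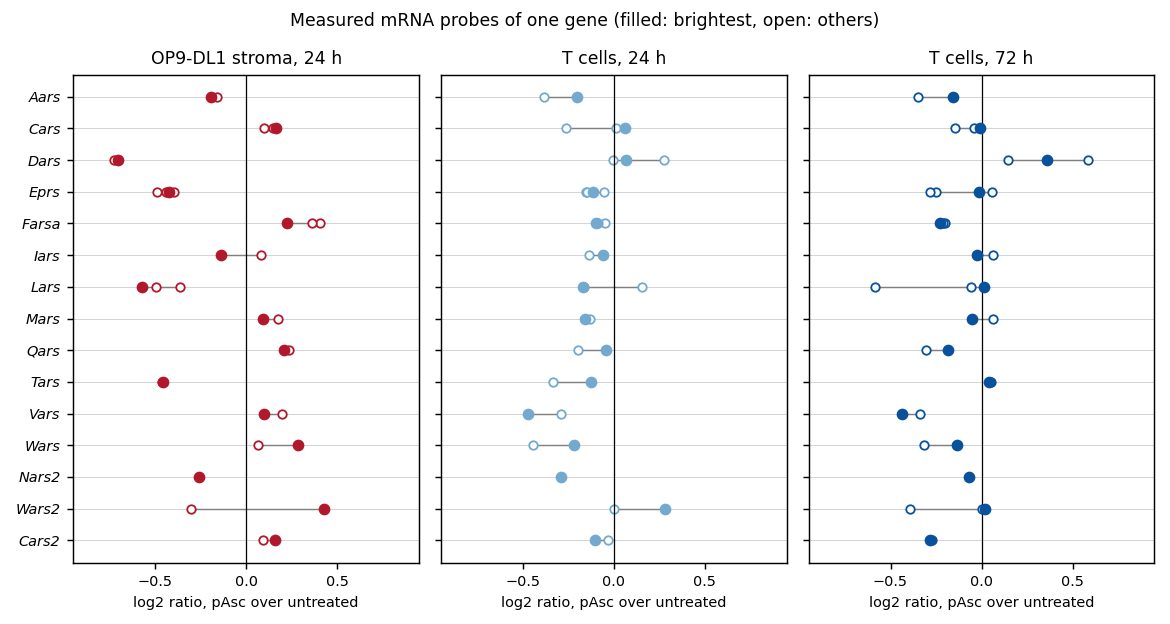
Log2 ratio of treated over untreated cells (x axis) for every measured mRNA probe of the synthetase genes with more than 1 such probe on the array design (y axis), by array, with the brightest probe filled and a line over the range. In stroma both Dars probes lie near -0.7 and the Wars2 probes on opposite sides of 0, and at 72 h the Lars probes run from -0.58 to 0.01.

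Where a gene had at least 2 measured mRNA probes, they could be set against each other on 14 genes of each array. All probes of a gene lay on the same side of 0 for 12 of the 14 genes in stroma, 11 after 24 h of T cell treatment and 9 after 72 h. Counting clone probes as well, a range of over 0.5 was found for Dars and Wars2 in stroma, for Dars and Lars at 72 h and for no gene at 24 h. Of the 12 clone probes that carry a synthetase name, 6, 10 and 9 were measured on the stromal, 24 h and 72 h arrays, against 50, 51 and 52 of the 53 mRNA probes.

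The untreated cultures show how far synthetase levels differ between the cell types before any treatment. Untreated stroma minus untreated day 14 T cells had a median log2 level difference of 0.20 over cytosolic and 0.19 over mitochondrial genes, beside 0.25 over all genes. Without scaling between arrays the cytosolic value was -0.09, and the median of all genes was negative as well. Of the cytosolic genes, 3 were at least 1.5-fold lower in stroma, beside 24% of all genes, and 4 at least 1.5-fold higher, beside 36%. These differences had an SD of 0.63 among cytosolic genes, beside 1.46 among all genes and 0.61 between different probes of a gene.

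By brightest probe, Dars was the furthest apart, at 10.90 in untreated stroma and 12.33 in untreated day 14 T cells, 2.69-fold lower in stroma. Its other probes measured in both samples gave differences of -1.64 and, for the clone probe, -0.83. The dimmest Lars mRNA probe gave 1.56, while the other Lars probes gave -0.11 and -0.07. Vars was 1.67-fold and Eprs 1.59-fold lower, the Eprs value being that of its brightest probe while 1 of its 4 probes gave 0.02. Nars, at 12.88 in untreated stroma and 11.69 in untreated day 14 cells, was 2.28-fold higher, Hars 2.01-fold, Aars 1.89-fold and Gars 1.51-fold. A clone probe named for Hars stood above background in treated but not in untreated stroma, and its difference was -1.03, the opposite sign. Among mitochondrial genes Wars2 was 2.47-fold and Ears2 1.69-fold higher in stroma, where second probes gave 0.40 for Wars2 and, from a clone probe, 0.69 for Ears2.

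Between untreated T cells of day 17 and day 14 the levels lay closer. The median difference was 0.09 over cytosolic and 0.12 over mitochondrial genes, and 0 of the 20 cytosolic genes passed 1.5-fold, beside 11.5% of all genes lower and 15.1% higher at day 17. Hars (0.37) and Farsb (0.37) were the highest and Dars (-0.46) the lowest, with 11.87 at day 17 and 12.33 at day 14. Wars2 was at 7.74 at day 17 and 7.01 at day 14, 1.65-fold higher, with 0.19 on its second probe. The stromal markers moved much further, with a median difference of 1.85 over 21 genes, and the part of stroma in these level differences was not tested. Each level is from 1 sample on its own array.

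The 13 cytosolic genes known as ATF4 targets were set beside 34 other ATF4 targets, which make or import amino acids or act in the stress response. The synthetases of this list had medians of -0.14 in stroma, -0.17 after 24 h of T cell treatment and -0.06 after 72 h. In that order 7, 12 and 11 of 13 lay below 0, beside 46.6%, 45.3% and 49% of all genes. The 7 other cytosolic genes had medians of -0.05, -0.04 and -0.16. Of the MYC targets described below, 8 of 13, 10 of 12 and 7 of 13 lay below 0. These values are after the loess dye curve. With median centring on measured genes in its place, the medians of all 20 cytosolic genes were 0.23, 0.03 and 0.13. In stroma 31 of the 34 other targets were measured, 24 of them were below 0, and their median was -0.20. Of the 31, 5 were lower by 1.5-fold, beside 2.78% of all genes, and 0 higher, beside 2.2%. Trib3, a pseudokinase gene induced by ATF4, had a level of 8.94 in treated and 11.09 in untreated stroma, a ratio of -2.15. Chac1, a glutathione-degrading enzyme gene, had 9.71 in treated and 11.16 in untreated stroma, a ratio of -1.45. Among the 13 synthetases of the list, 0 passed 1.5-fold on any of the 3 arrays. Of all genes, 2.78% were lower and 2.2% higher in stroma, 0.23% and 3.19% at 24 h, and 1.93% each way at 72 h. A count of 0 of 13 is near these shares.

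In T cells the other ATF4 targets gave 0 of 32 lower by 1.5-fold at 24 h, beside 0.23% of all genes, and 3 higher, beside 3.19%. At 72 h, 3 were lower and 0 higher, beside 1.93% of all genes in each direction. Atf3, a stress-induced transcription factor, was at 10.93 in treated and 9.73 in untreated cells at 24 h, a ratio of 1.20. Trib3 was at 7.99 in treated and 9.21 in untreated cells at 72 h, a ratio of -1.22. The other targets held TGATGNAA in 10 of 28 promoters read, beside 3.97% of all promoters, and TGATGCAA in 8 of 28, beside 0.895%. The list was chosen as known ATF4 targets, so these counts are no separate evidence of ATF4 action.

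**Figure D4:**
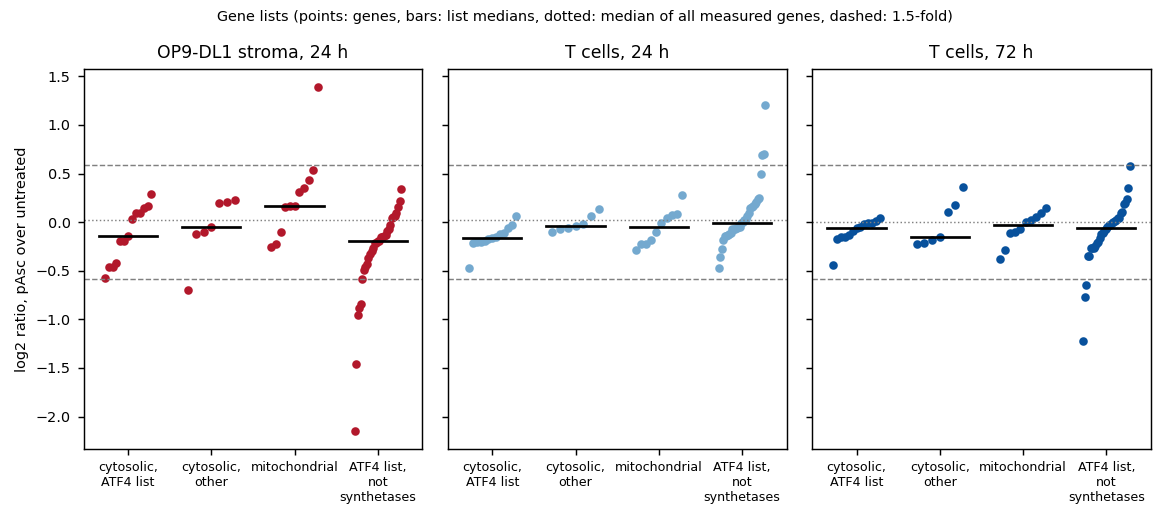
Log2 ratio of treated over untreated cells (y axis) for 4 gene lists on the 3 arrays, with points for measured genes, bars for list medians, a dotted line at the median of all measured genes and dashed lines at 1.5-fold. In stroma the ATF4 targets that are not synthetases reach down to -2.15 (Trib3), while the ATF4-list synthetases stay between -0.57 and 0.28; values are after the loess dye curve.

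Genes that work beside the synthetases were read from lists. The scaffold proteins of the multi-synthetase complex, Aimp1, Aimp2 and Eef1e1, had medians of -0.08 in stroma, 0.05 at 24 h and 0.16 at 72 h. On each array 0 of 3 passed 1.5-fold. Of all genes, 2.78% were lower and 2.2% higher in stroma, 0.23% and 3.19% at 24 h, and 1.93% each way at 72 h. Of 21 initiation and elongation factors of translation 20 were measured, with medians of -0.04, 0.04 and 0.08. In stroma 2 of them were lower by 1.5-fold, beside 2.78% of all genes, and 2 higher, beside 2.2%, and in T cells 0 were lower and 1 was higher at each time, beside 3.19% of all genes higher at 24 h and 1.93% at 72 h. The 13 MYC targets of ribosome building and growth had medians of -0.01, -0.11 and -0.04, and Ldha, a glycolysis enzyme, was at 16.45 in treated and 15.31 in untreated T cells at 72 h, a ratio of 1.14. Over the 3 arrays the genes nearest to the cytosolic median pattern among named genes were Vcp, Pcnt and Nxph3, but 312 of 13595 genes (2.3%) lay within a distance of 0.1 of it.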

How the data were processed

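The authors deposited spot intensity values per channel, mean signals and median local backgrounds with no normalization, and the file headers name Agilent Feature Extraction 10.5.1.1 as their source. The deposited log10 ratio of Cy5 over Cy3 was background-subtracted and dye-normalized by that software, per the file headers, and was turned to log2 as an alternative. Probe positions are on mm9, per the file headers.

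Intensities were corrected with normexp (offset 50) and normalized by loess (span 0.3) in limma 3.58.1 (R 4.3.3), with control and outlier-flagged spots at weight 0. From 117 to 130 spots per array were flagged and 0 were saturated. Levels by channel were scaled with Aquantile. Of the other probes, 25036 took a name through a RefSeq accession, 6327 through a symbol and 1639 through a synonym; the file's name stood for 8107 and for the 65 synthetase probes. The number of arrays, 1 per comparison, limits the precision. On simulated arrays of 43379 spots, 2-fold changes came back at a median of 0.98 to 1.02 in log2 size, and 100% passed 1.5-fold, as did 42% to 68% of 1.5-fold changes and 0% of unchanged spots. The simulated noise was about that of repeat spots, and less than the SD between probes of a gene. With noise so small, unchanged spots could hardly pass, so the 0% gives no false call rate for probes or cultures.

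The members, lists and rules were chosen with earlier results of these data known. Genes were described one by one where they passed 1.5-fold, were among the 3 highest or lowest of an array, had probes over 0.5 apart, or are mitochondrial; genes of other lists where they passed 2-fold. The genes of nearest pattern were the 5 at the smallest distance, of which 2 without a gene symbol are not named. Some items are not reported here.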

Additional observations from a re-analysis of the deposited data

Results flagged for a closer look

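Dars, the aspartate enzyme, had opposite signs in treated stroma and in T cells treated for 72 h, with log2 ratios of -0.70 and 0.36 on its brightest probe. On the stromal array 1.28% of measured genes had a lower ratio than Dars, and at 72 h 91.8% did. Its measured probes ranged over 0.73 in stroma and 0.94 at 72 h, beside a pooled SD of 0.178 between probes of a gene on each array. The second mRNA probe of Dars gave -0.73 and 0.58. Another mRNA probe, not above background in untreated stroma, gave 0.14 at 72 h, and the clone probe gave -0.00 in stroma and -0.36 at 72 h, the opposite sign. Cell type and treatment time differ at once between these arrays, and with 1 array each the difference was not tested.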

How the results depend on the processing

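Median centring on all probes in place of loess put the median of all genes at 0.64 (stroma), 0.41 (T cells, 24 h) and 0.54 (T cells, 72 h). There the cytosolic medians were 0.87, 0.44 and 0.67, the mitochondrial ones 0.85, 0.34 and 0.48, the cytosolic difference of 72 h minus 24 h was 0.23 and that of stroma minus T cells 0.44, where all genes were at 0.22. The genes at least 1.5-fold higher numbered 22, 3 and 16, those lower in stroma 0, and Dars in stroma turned to 0.053, which is still below the median of all genes. Centring on measured genes gave cytosolic medians of 0.23 in stroma and 0.13 at 72 h and a stroma minus T cell difference of 0.21, with 2 genes lower (Dars and Nars2) and 2 higher (Lars2 and Fars2) in stroma. The deposited log ratio and plain background subtraction each gave 2 higher in stroma, Lars2 and Fars2. By construction, centring leaves in the trend with brightness that loess takes out. An offset of 0, no filter on dim probes, the median over probes, and a running median over brightness kept these medians and counts close to those above. Without scaling between arrays, the cytosolic level difference for untreated stroma minus day 14 T cells turned to -0.091, where all genes were at -0.11. For day 17 minus day 14 it was 0.22, where all genes were at 0.038. With scaling, the medians of all genes were 0.25 and 0.0023 in that order. The cause of these moves was not tested. The running median, and the removal of genes brighter in stroma, were chosen after seeing the data. No paired analysis was possible because there was 1 array per comparison.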

Other observations

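The Lars2 spot left out on the T cell arrays for its Cy3 flag had deposited log2 ratios of 0.37 at 24 h and -0.55 at 72 h.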
